A study of Homo sapiens with 6 samples.

Results

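The proteasome subunit genes were followed in LPS-stimulated macrophage-like cells in which the circular RNA hsa_circ_0004287 had been targeted with an siRNA. Members were taken by gene symbol alone, as every row whose name begins with PSMA to PSMG followed by a digit, which gave 49 of the 19976 genes in the table. They comprised 8 alpha subunits and 4 structural beta subunits of the 20S core, 3 constitutive and 3 immunoproteasome catalytic beta subunits, and the thymic catalytic subunit PSMB11. The others were 6 ATPases and 11 non-ATPase subunits of the 19S cap, 3 PSMD genes for cap assembly chaperones, 4 activators, the inhibitor PSMF1 and 4 core assembly chaperones. One further row, PSMC3IP, matched the name pattern only. Its protein acts in meiotic recombination and is not a proteasome subunit, and it is kept in every count of members.

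THP-1 is a line of human monocytic leukaemia cells. Here 50 ng/ml of PMA, a phorbol ester, had made the cells macrophage-like over 48 h. Transfection followed, at 200 nM and for another 48 h, with an siRNA directed at hsa_circ_0004287 (circ siRNA, 3 libraries) or with negative control siRNA (control siRNA, 3 libraries). Both groups carried the same PMA differentiation, the same lipid transfection and a final LPS stimulus (200 ng/ml, 3 h), so neither stands for resting cells. Nothing in the labels says whether libraries 1 to 3 of a group were separate cultures, and every p-value therefore rests on a spread between libraries that may be technical only. Poly-A RNA was sequenced, which leaves out circular RNAs, and the level of the target was not analysed here.

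The proteasome is the main cytosolic protease for ubiquitin-tagged proteins. Its barrel-shaped 20S core holds the catalytic beta subunits, and caps or activators at the barrel ends open the gate to the chamber. The 19S cap recognises, deubiquitinates and unfolds substrates with its ATPase ring, and assembly chaperones build core and cap. In cells exposed to interferons, and constitutively in many haematopoietic cells, PSMB9, PSMB10 and PSMB8 are built into new cores in place of PSMB6, PSMB7 and PSMB5. The resulting immunoproteasome is known for producing peptides for MHC class I presentation in macrophages and dendritic cells. Constitutive subunit genes are also raised together by the transcription factor NFE2L1 when proteasome activity falls short.

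RefSeq promoter sequences (GRCh38.p14), each running from 250 bases before to 50 bases after an annotated start, were matched by symbol for 43 of the 49 members, in 53 entries. PSMB1, PSMB6, PSMB7, PSMA7, PSMD4 and PSMG3 are named only. The interferon-inducible genes are printed first because the comparison with their constitutive counterparts is the one this gene family is known for, and PSMB5 is printed as the constitutive counterpart of PSMB8. Capitals mark matches, on either strand, to 4 letter patterns. These are the core of the interferon-stimulated response element (GAAA, any 2 bases, GAAA), the STAT-binding GAS element (TTC, any 3 bases, GAA), an NF-kB pattern (GGGA, any 3 bases, TCC) and the core of the antioxidant response element (TGAC, any 3 bases, GC). PSMB8 and PSMB5 have a second entry each, which holds none of the 4 patterns and is not printed. No 2 matches overlap in the sequences below.
PSMB8 promoter, chr6:32843998-32844297, minus strand: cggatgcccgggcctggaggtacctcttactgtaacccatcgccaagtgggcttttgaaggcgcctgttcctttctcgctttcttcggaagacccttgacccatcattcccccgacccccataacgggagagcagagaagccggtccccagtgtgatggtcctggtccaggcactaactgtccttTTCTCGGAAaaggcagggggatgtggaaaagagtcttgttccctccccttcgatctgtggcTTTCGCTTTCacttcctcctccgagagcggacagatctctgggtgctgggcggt
PSMB9 promoter, chr6:32853942-32854241, plus strand: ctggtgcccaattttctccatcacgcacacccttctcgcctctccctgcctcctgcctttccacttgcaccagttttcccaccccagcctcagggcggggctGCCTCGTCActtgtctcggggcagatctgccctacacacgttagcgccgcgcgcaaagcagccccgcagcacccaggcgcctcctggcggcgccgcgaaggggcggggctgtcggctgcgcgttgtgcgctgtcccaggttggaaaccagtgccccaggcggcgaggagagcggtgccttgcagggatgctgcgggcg
PSMB10 promoter, chr16:67936801-67937100, minus strand: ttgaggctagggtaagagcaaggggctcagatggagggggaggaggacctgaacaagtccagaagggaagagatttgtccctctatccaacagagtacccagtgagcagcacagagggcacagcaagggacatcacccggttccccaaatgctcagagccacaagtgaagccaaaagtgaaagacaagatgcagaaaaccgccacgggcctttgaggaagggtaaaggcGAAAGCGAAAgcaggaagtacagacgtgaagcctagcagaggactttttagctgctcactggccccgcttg
PSME1 promoter, chr14:24135944-24136243, plus strand: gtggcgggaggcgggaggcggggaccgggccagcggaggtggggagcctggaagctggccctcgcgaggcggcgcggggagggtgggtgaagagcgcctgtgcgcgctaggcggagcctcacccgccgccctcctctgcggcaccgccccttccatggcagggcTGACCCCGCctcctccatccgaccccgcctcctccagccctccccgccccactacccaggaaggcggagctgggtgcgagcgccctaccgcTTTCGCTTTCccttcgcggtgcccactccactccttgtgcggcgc
PSME2 promoter, chr14:24146561-24146860, minus strand: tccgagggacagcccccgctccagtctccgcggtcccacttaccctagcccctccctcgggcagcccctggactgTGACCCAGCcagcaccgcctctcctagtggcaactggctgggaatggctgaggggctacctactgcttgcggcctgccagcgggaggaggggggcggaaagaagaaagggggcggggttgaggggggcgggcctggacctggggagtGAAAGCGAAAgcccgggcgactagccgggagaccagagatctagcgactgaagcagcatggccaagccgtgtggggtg
PSMB5 promoter, chr14:23034851-23035150, minus strand: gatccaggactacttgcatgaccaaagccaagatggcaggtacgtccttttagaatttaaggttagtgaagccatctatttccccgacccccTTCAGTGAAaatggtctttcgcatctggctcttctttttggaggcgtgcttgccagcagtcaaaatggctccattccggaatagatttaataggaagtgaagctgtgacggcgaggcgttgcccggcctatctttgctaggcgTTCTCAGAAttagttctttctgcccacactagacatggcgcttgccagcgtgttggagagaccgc

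The interferon-response core stood in the printed windows of PSMB8, PSMB10, PSME1 and PSME2, and these letters were not in the windows of PSMB9 and PSMB5. It was held by 7 of the 53 member entries (13.2%), the other 3 being PSMA4, PSMB4 and PSMG4, against 3.57% of 35116 promoters of the same length. The GAS pattern was found in the windows of PSMB8 and PSMB5, among 8 member entries (15.1%) against 7.66% of all promoters. The antioxidant core was held by 15 member entries (28.3%) against 13.3% of all promoters, and PSMB9, PSME1 and PSME2 were among them. The NF-kB pattern was held by 2 member entries (3.77%), those of PSME3 and PSMG2, against 5.07% of all promoters. The annotated start of PSMB9 lies 488 bases from that of TAP1, the peptide transporter gene that reads away from it on the other strand. A match describes letters in a window and is not a binding site.

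Library totals ran from 14793902 to 16736972 counts, and 3 counts correspond to 0.179 to 0.203 CPM of these unscaled totals. All other CPM values (counts scaled to a common total) are relative to TMM-scaled totals. Of the 49 members, 47 passed the filter on low counts. PSMA8, the alpha subunit of testis, and PSMB11, the catalytic subunit of thymic epithelium, had 0 counts in all 6 libraries. Of 10 macrophage markers 8 were tested, with summed levels of 1852 to 2870 CPM in circ siRNA libraries and 2317 to 3041 CPM in control siRNA libraries, while CD68 (at most 5 counts) and MRC1 (at most 6 counts) were close to 0. For CD68, 95.3% of the principal transcript is shared on the same strand with other annotated transcripts, mainly of AC016876.2, so its count is uncertain. Summed T and NK cell markers stayed at or below 6.57 CPM in every library, with CD3G and CD2 at 0. NKG7 (20 to 54 counts) and GNLY (19 to 40 counts) made up most of that sum. Neutrophil markers summed to 90.6 to 105 CPM in circ siRNA libraries and 58.6 to 102 CPM in control siRNA libraries, with CEACAM8 and CAMP at 0. AZU1 (432 to 853 counts), CSF3R (447 to 604 counts) and ELANE (89 to 175 counts) made up most of the neutrophil sum. B cell markers summed to 38.9, 35.9 and 41.4 CPM in circ siRNA libraries and 25.4, 25.6 and 26.6 CPM in control siRNA libraries, without overlap. Most of this sum was CD22, with 595, 552 and 604 counts in circ siRNA libraries and 390, 336 and 363 counts in control siRNA libraries, while MS4A1 had at most 3 counts and BLK 0. Its part in the members' values was not tested. Fibroblast markers summed to 24.4 to 29.4 CPM in circ siRNA libraries and 26.4 to 29.9 CPM in control siRNA libraries, and epithelial markers to at most 14.4 CPM in any library, with EPCAM and KRT5 at 0. COL1A1 (154 to 291 counts) and PDGFRA (178 to 206 counts) made up most of the fibroblast sum. MUC1 (163 to 211 counts) made up most of the epithelial sum.

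No proteasome gene passed the test between circ siRNA and control siRNA libraries. With edgeR's quasi-likelihood test and Benjamini-Hochberg adjustment over 12469 genes, 0 members were higher and 0 were lower at an adjusted p under 0.05, where 0% of all tested genes were called higher and 0.00802% lower. The smallest adjusted p among members was 0.864. No member had an unadjusted p under 0.05, against 6.45% of all tested genes, and limma-voom called 0 members and 0% of all tested genes. DESeq2 called 0 members in either direction, where it called 0.481% of all tested genes higher and 0.184% lower. On the TMM-scaled CPM used for testing, in no member did the 3 circ siRNA libraries lie apart from the 3 control siRNA libraries, against 12.5% of all tested genes (6.64% with circ siRNA higher and 5.87% with circ siRNA lower). In bulk RNA of this kind, fewer cells of a type and less RNA per cell cannot be told apart. Log2 fold changes (circ siRNA over control siRNA) ran from -0.42 for PSMG3 to 0.16 for PSMD5. They were below 0 for 39 of the 47 members, with a median of -0.13, against 51.2% of all tested genes and a median of -0.01. For 26 of the 47 members the 95% interval lay within a 1.5-fold change in either direction, against 5621 of the 12469 tested genes. Within a 2-fold change it lay for 46 members, against 10232 of all tested genes.

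**Figure D1:**
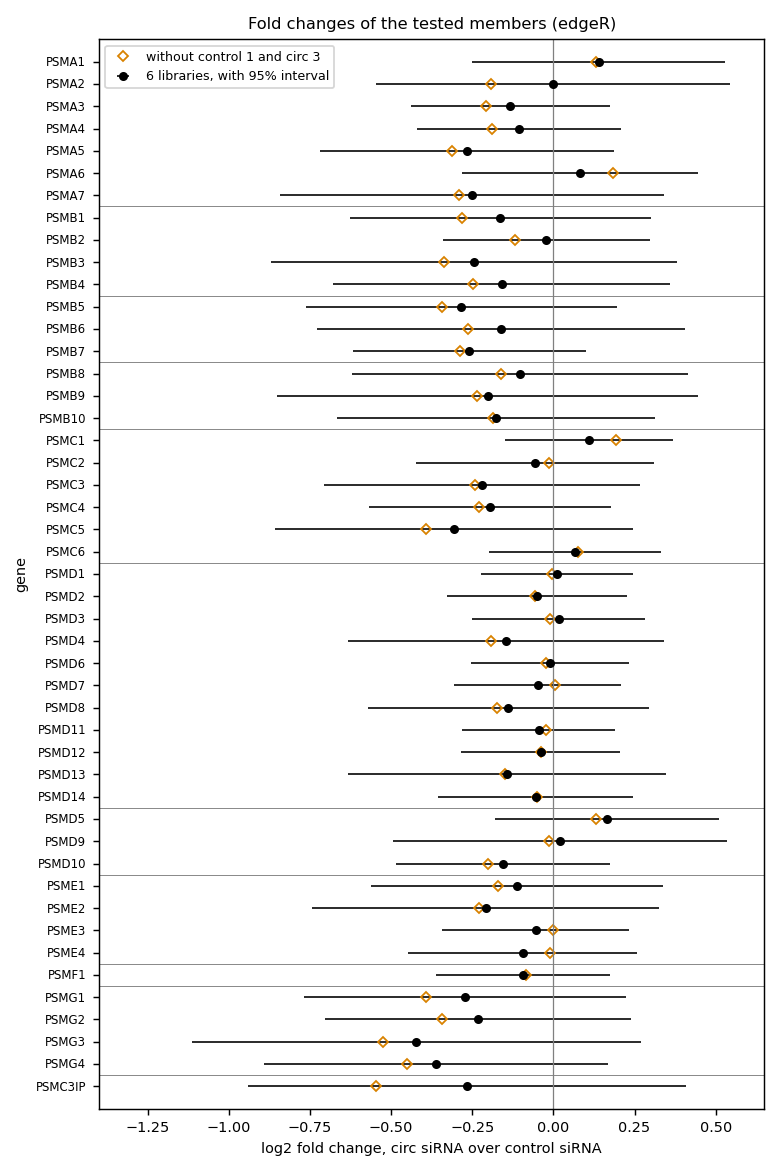
Log2 fold changes of the 47 tested members, grouped by role, circ siRNA over control siRNA. Filled points with bars give the edgeR estimate and its 95% interval over 6 libraries, and open diamonds the estimate without control library 1 and circ library 3. Every bar crosses 0, and most points lie to the left of it, down to -0.42 for PSMG3.

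The constitutive catalytic subunits were at middle to high levels and their groups overlapped. Levels are given as deposited FPKM, which are per gene length. PSMB5, the chymotrypsin-like subunit, lies at chr14:23016543-23035230 on the minus strand. Its level was 27.5, 28.1 and 22.5 FPKM in circ siRNA libraries, against 24.1, 36.9 and 32.0 FPKM in control siRNA libraries. Control libraries 2 and 3 were the highest, while control library 1 fell among the circ siRNA libraries. The means were 26.0 ± 3.07 and 31.0 ± 6.46 FPKM (SD, n = 3 each), with a log2 fold change of -0.28 ± 0.21 (SE) and an adjusted p of 0.882 by edgeR. PSMB6, the caspase-like subunit (chr17:4796144-4798502, plus strand), had 36.4, 40.8 and 30.5 FPKM in circ siRNA libraries and 27.1, 46.7 and 43.9 FPKM in control siRNA libraries. Here the lowest and the highest values were both controls, and the log2 fold change was -0.16 ± 0.25 (SE; adjusted p = 0.915, edgeR). PSMB7, the trypsin-like subunit (chr9:124353465-124415444, minus strand), had 68.2, 68.9 and 59.4 FPKM in circ siRNA libraries and 67.0, 82.9 and 80.8 FPKM in control siRNA libraries. Only control library 1 lay within the range of the circ siRNA libraries. Its log2 fold change was -0.26 ± 0.16 (SE), with a 95% interval of -0.62 to 0.10, and its unadjusted p of 0.135 (adjusted 0.864, edgeR) was the smallest of all members.

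The immunoproteasome subunits moved with the libraries in the same manner, and their groups overlapped too. PSMB8, which replaces PSMB5, lies at chr6:32840717-32844679 on the minus strand, within the MHC region. It had 64.7, 74.8 and 54.1 FPKM in circ siRNA libraries and 51.0, 79.4 and 73.4 FPKM in control siRNA libraries. The lowest and the highest of the 6 values were controls, and the log2 fold change was -0.10 ± 0.23 (SE; adjusted p = 0.932, edgeR). PSMB9, which replaces PSMB6, lies beside it at chr6:32844136-32859851 on the plus strand. It had 30.3, 35.5 and 21.2 FPKM in circ siRNA libraries and 22.3, 37.7 and 38.1 FPKM in control siRNA libraries. Circ library 3 and control library 1 were low and close together, and the log2 fold change was -0.20 ± 0.28 (SE; adjusted p = 0.907, edgeR). PSMB10, which replaces PSMB7, lies at chr16:67934506-67936864 on the minus strand. It had 20.8, 23.3 and 16.4 FPKM in circ siRNA libraries and 18.1, 23.3 and 25.8 FPKM in control siRNA libraries. Its log2 fold change was -0.18 ± 0.21 (SE; adjusted p = 0.894, edgeR). The deposited spans of PSMB8 and PSMB9 overlap at their ends on opposite strands, and reads there cannot be assigned because the counting's use of strand is not given. Neither gene's principal transcript, however, shares exon bases with another annotated gene. The deposited start of PSMB9 also differs from the RefSeq start behind its promoter window and its distance to TAP1, as that window lies inside the deposited span. A same-strand gene, AC040162.1, covers 45.3% of the principal transcript of PSMB10. It had 117 counts in circ library 3, where PSMB10 was lowest, and 47 to 77 in the others. The part of this overlap in the level of PSMB10 and in its ratio to PSMB7 was not tested.

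**Figure D2:**
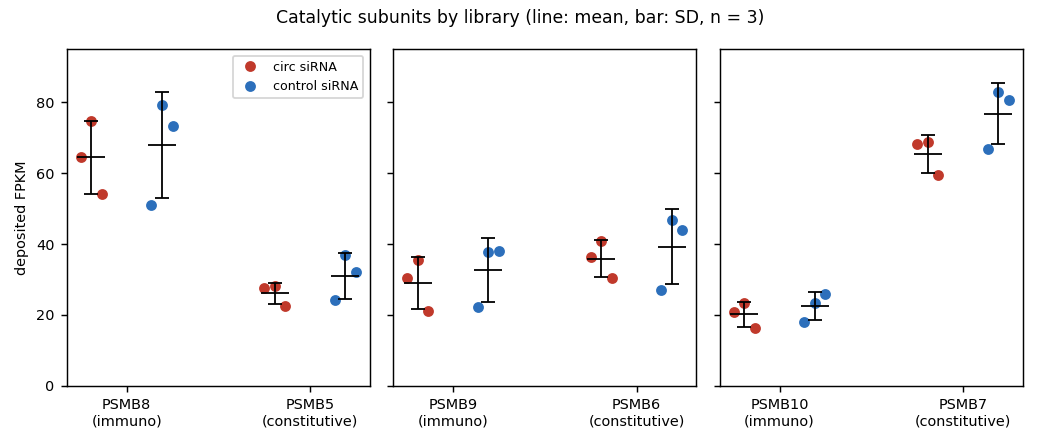
Deposited FPKM of the 3 immunoproteasome subunits and the constitutive subunits they replace, with a point per library, a line at the mean and a bar for the SD (n = 3). Circ siRNA points (left) and control siRNA points (right) overlap for all 6 genes, and PSMB8 and PSMB7 are the highest of them.

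By deposited FPKM, PSMB7 and PSMB8 were the highest of the 6 catalytic genes and their ranges over the libraries overlapped. PSMB6, PSMB9 and PSMB5 formed a middle group whose ranges also overlapped, while PSMB10 had the lowest mean and overlapped the lower end of PSMB9 and PSMB5, with 20.2 ± 3.52 FPKM in circ siRNA libraries and 22.4 ± 3.97 FPKM in control siRNA libraries. This order depends on the length used. The deposited length of PSMB8, 3480 bases, covers exons of all its transcripts, while its principal transcript in GENCODE 29 has 1124 bases. On the scale of CPM per kilobase of principal transcript, PSMB8 was at 199 in circ siRNA libraries and 214 in control siRNA libraries on average, ahead of PSMB9 at 124 and 142 and of PSMB7 at 119 and 142. PSMB6 then stood at 60.8 and 68.0, PSMB5 at 31.0 and 37.8, and PSMB10 at 26.9 and 30.4.

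Ratios of a subunit to its counterpart within a library need no scaling between libraries. The FPKM of PSMB8 exceeded that of PSMB5 by a log2 ratio of 1.24, 1.41 and 1.26 in circ siRNA libraries and of 1.08, 1.10 and 1.20 in control siRNA libraries. All 3 circ siRNA values were above all 3 control siRNA values. The means were 1.30 ± 0.09 and 1.13 ± 0.06 (SD, n = 3 each), a difference of 0.18 ± 0.06 (SE) against a pooled SD of 0.08. PSMB8 thus held 71.2 ± 1.33% of the FPKM of the pair in circ siRNA libraries and 68.6 ± 0.91% in control siRNA libraries. Per kilobase of principal transcript its share was 86.4 ± 0.76% in circ siRNA libraries and 84.9 ± 0.54% in control siRNA libraries. The ratio is given as a description, without a test, and an exact permutation test of 3 libraries against 3 could not give a p below 0.1. It was the only one of the 3 pairs without overlap. No share of other gene pairs without overlap was measured, and on TMM-scaled CPM 12.5% of all tested genes singly lay apart in either direction. The 2 genes differ in deposited length, 3480 bases for PSMB8 and 1549 bases for PSMB5. With offsets for each library's trend over gene length and GC content, the difference between the log2 fold changes of the 2 genes was 0.11, and without the offsets 0.18. It was 0.07 when control library 1 and circ library 3, which stand apart as described below, were left out as well.

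The ratio of PSMB9 to PSMB6 was -0.27, -0.20 and -0.53 (log2 FPKM) in circ siRNA libraries and -0.28, -0.31 and -0.21 in control siRNA libraries. Circ library 3 was the lowest and the other 5 values lay close together. The difference of -0.07 ± 0.10 (SE) was below the pooled SD of 0.13, and without circ library 3 it was 0.03. Per kilobase of principal transcript PSMB9 was above PSMB6, at a mean log2 ratio of 1.00 ± 0.17 in circ siRNA libraries and 1.06 ± 0.05 in control siRNA libraries (SD, n = 3 each), with the same difference between groups. For PSMB10 over PSMB7 the log2 ratios were -1.71, -1.56 and -1.86 in circ siRNA libraries and -1.89, -1.83 and -1.65 in control siRNA libraries. These overlapped, with a difference of 0.08 ± 0.11 (SE) against a pooled SD of 0.14. With the offsets the differences between the log2 fold changes were -0.16 for PSMB9 and PSMB6 and 0.13 for PSMB10 and PSMB7.

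**Figure D3:**
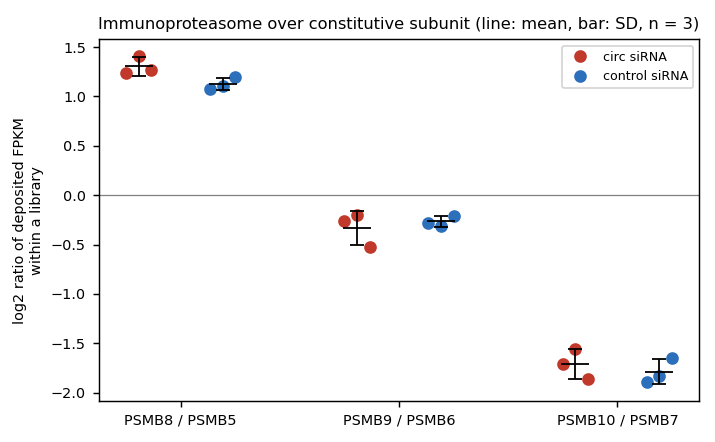
Log2 ratio of deposited FPKM of each immunoproteasome subunit over its constitutive counterpart within a library, with circ siRNA points left of control siRNA points, a line at the mean and a bar for the SD (n = 3). The PSMB8 to PSMB5 points do not overlap between groups (means 1.30 and 1.13), and those of the other 2 pairs do. How often other gene pairs lie apart was not measured.

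None of the 4 activators passed the test. PSME1 and PSME2 varied across libraries like the immunoproteasome subunits, and also like PSMB5, PSMB6 and other core subunits such as PSMB4 and PSMA7. PSME3 and PSME4, with longer deposited lengths of 5154 and 10392 bases, ran the other way. The principal transcript of PSME3, however, has 998 bases, against 1006 for PSME1 and 1404 for PSME2. PSMG4, with the longest deposited length of the members (10418 bases), did not run that way. The part of length in this difference between activators was not tested. PSME1 and PSME2 encode the 2 kinds of subunit of the interferon-inducible PA28 ring and are neighbours on chromosome 14. PSME1 (chr14:24136163-24138967, plus strand) had 53.6, 59.0 and 46.9 FPKM in circ siRNA libraries and 44.7, 65.1 and 59.0 FPKM in control siRNA libraries. PSME2 (chr14:24143362-24147570, minus strand) had 29.7, 32.1 and 21.9 FPKM in circ siRNA libraries and 24.0, 36.5 and 34.4 FPKM in control siRNA libraries. In both genes control library 1 and circ library 3 were the 2 lowest. The log2 fold changes were -0.11 ± 0.20 (SE) for PSME1 and -0.21 ± 0.23 (SE) for PSME2, with adjusted p of 0.921 and 0.891 by edgeR. Of the 50-base stretches of PSME2's principal transcript, 10.8% also occur elsewhere among annotated loci, so its counts are less certain.

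PSME3 encodes a related ring of the nucleus, and PSME4 the large activator PA200, known for its part in histone turnover. PSME3 had 28.3, 26.2 and 32.0 FPKM in circ siRNA libraries and 35.1, 25.7 and 27.7 FPKM in control siRNA libraries. PSME4 had 6.42, 5.53 and 7.32 FPKM in circ siRNA libraries and 8.52, 5.67 and 6.10 FPKM in control siRNA libraries. In both, control library 1 and circ library 3 were the 2 highest. Their log2 fold changes were -0.06 ± 0.13 (SE) and -0.09 ± 0.15 (SE), with adjusted p of 0.935 and 0.918 by edgeR. PSMF1, which encodes the core inhibitor PI31, had its highest library at 1.08 times its lowest on the FPKM scale, the smallest such range of the tested members on that scale. It had 3.82, 3.90 and 3.74 FPKM in circ siRNA libraries and 4.01, 4.04 and 3.98 FPKM in control siRNA libraries. On the FPKM scale all 3 circ siRNA values were below all 3 control siRNA values, whereas on TMM-scaled CPM the groups overlapped, and the log2 fold change was -0.09 ± 0.12 (SE; adjusted p = 0.896, edgeR). The share of all genes lying apart on the FPKM scale was not counted, so this separation cannot be weighed. On TMM-scaled CPM 5.87% of all tested genes lay apart in this direction.

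The core's alpha ring and structural beta subunits included the most abundant members per length. PSMB4, a structural beta subunit, was the highest of all 49, with 134, 144 and 113 FPKM in circ siRNA libraries and 104, 171 and 153 FPKM in control siRNA libraries. Control library 1 was the lowest and control library 2 the highest, and the log2 fold change was -0.16 ± 0.23 (SE; adjusted p = 0.91, edgeR). PSMB3, a structural beta subunit with the shortest deposited length of the members, had 124, 134 and 95.1 FPKM in circ siRNA libraries and 89.9, 171 and 147 FPKM in control siRNA libraries. PSMB1, another structural beta subunit, had 57.6, 59.8 and 52.7 FPKM in circ siRNA libraries and 46.6, 73.3 and 66.3 FPKM in control siRNA libraries. All 4 structural beta subunits had log2 fold changes below 0 (median -0.16).

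In the alpha ring 5 of the 7 tested genes had log2 fold changes below 0, with a median of -0.11. PSMA7, an alpha subunit, had 109, 121 and 79.6 FPKM in circ siRNA libraries and 85.6, 142 and 134 FPKM in control siRNA libraries. PSMA5, another subunit of the ring, had 27.0, 28.7 and 22.7 FPKM in circ siRNA libraries and 24.8, 36.7 and 31.0 FPKM in control siRNA libraries. PSMA3 varied less, with 41.5, 44.4 and 43.6 FPKM in circ siRNA libraries and 42.0, 50.1 and 47.0 FPKM in control siRNA libraries. In PSMA7 and PSMA5 circ library 3 was the lowest and control library 2 the highest, and the log2 fold changes were -0.25 and -0.27. PSMA1, PSMA2 and PSMA6, whose products belong to the same ring, were listed at only 4.53, 0.683 and 1.67 FPKM on average in circ siRNA libraries and at 4.03, 0.666 and 1.56 FPKM in control siRNA libraries. These 3 genes were singled out after their values were seen. Of their principal transcripts, 53.2%, 52.5% and 81.0% are shared on the same strand with an annotated read-through gene, and these read-through genes had at most 2 counts in any library. For PSMA6, 24.6% of its 50-base stretches also occur at other loci. How the authors' counting treated reads in shared exons was not tested, and the levels of these 3 genes are uncertain.

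The 6 ATPases of the cap, which form the unfolding ring, had a median log2 fold change of -0.13, 4 of them below 0. PSMC5 had the lowest fold change of them, with 21.5, 23.9 and 17.8 FPKM in circ siRNA libraries and 18.1, 31.2 and 27.1 FPKM in control siRNA libraries (log2 fold change -0.31 ± 0.24, SE; adjusted p = 0.885, edgeR). An opposite-strand gene, FTSJ3, covers 27.2% of its principal transcript. PSMC3, the most abundant ATPase, had 78.4, 84.6 and 60.9 FPKM in circ siRNA libraries and 67.3, 97.1 and 91.3 FPKM in control siRNA libraries. PSMC4 had 43.8, 43.5 and 37.9 FPKM in circ siRNA libraries and 40.4, 52.9 and 47.3 FPKM in control siRNA libraries. The 2 ATPases above 0 were PSMC1 (0.11) and PSMC6 (0.07). The principal transcript of PSMC1 is 82.1% overlapped by NRDE2 on the opposite strand, and 29.4% and 24.7% of the 50-base stretches of PSMC1 and PSMC6 occur at other loci.

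The 11 non-ATPase subunits of the cap had log2 fold changes from -0.15 to 0.02 and a median of -0.05. PSMD4, a ubiquitin receptor of the cap, had 90.0, 96.5 and 72.7 FPKM in circ siRNA libraries and 72.5, 108 and 100.2 FPKM in control siRNA libraries. PSMD8, a subunit of the lid, had 76.0, 81.5 and 64.0 FPKM in circ siRNA libraries and 65.0, 89.2 and 84.8 FPKM in control siRNA libraries. PSMD13, also of the lid, had 29.2, 32.6 and 22.7 FPKM in circ siRNA libraries and 24.5, 35.1 and 31.9 FPKM in control siRNA libraries. Circ library 3 and control library 1 were the 2 lowest in each. The scaffold subunit PSMD2 stayed closer together, at 46.0, 45.1 and 42.9 FPKM in circ siRNA libraries and 43.7, 46.1 and 46.5 FPKM in control siRNA libraries. For PSMD4, 22.8% of its 50-base stretches occur at other loci. Of the chaperones that build the cap, PSMD5 had 5.22, 4.24 and 6.12 FPKM in circ siRNA libraries and 5.19, 4.11 and 4.32 FPKM in control siRNA libraries, with a log2 fold change of 0.16 ± 0.15 (SE; adjusted p = 0.886, edgeR). PSMD10, also known as gankyrin, had a log2 fold change of -0.15. PSMD9 was listed at 0.367 FPKM on average in circ siRNA libraries and 0.355 FPKM in control siRNA libraries, and 43.8% of its principal transcript is shared with a same-strand gene that had at most 1 count.

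The chaperones that assemble the core had the lowest median log2 fold change of the classes with more than 1 tested gene, -0.32, and all 4 were below 0. PSMG3 had 8.58, 9.66 and 6.54 FPKM in circ siRNA libraries and 6.78, 13.9 and 11.8 FPKM in control siRNA libraries. Control libraries 2 and 3 were the highest, while control library 1 lay among the circ siRNA libraries. Its log2 fold change was -0.42 ± 0.30 (SE), with a 95% interval of -1.11 to 0.27 and an adjusted p of 0.882 by edgeR. PSMG4 had 0.54, 0.68 and 0.54 FPKM in circ siRNA libraries and 0.58, 0.87 and 0.76 FPKM in control siRNA libraries. PSMG1 had 7.08, 7.16 and 6.34 FPKM in circ siRNA libraries and 6.05, 8.58 and 9.72 FPKM in control siRNA libraries. Both overlapped between groups, with adjusted p of 0.87 and 0.885 by edgeR. PSMC3IP, outside the complex, had 0.96, 0.63 and 1.39 FPKM in circ siRNA libraries and 1.22, 0.97 and 1.30 FPKM in control siRNA libraries.

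**Figure D4:**
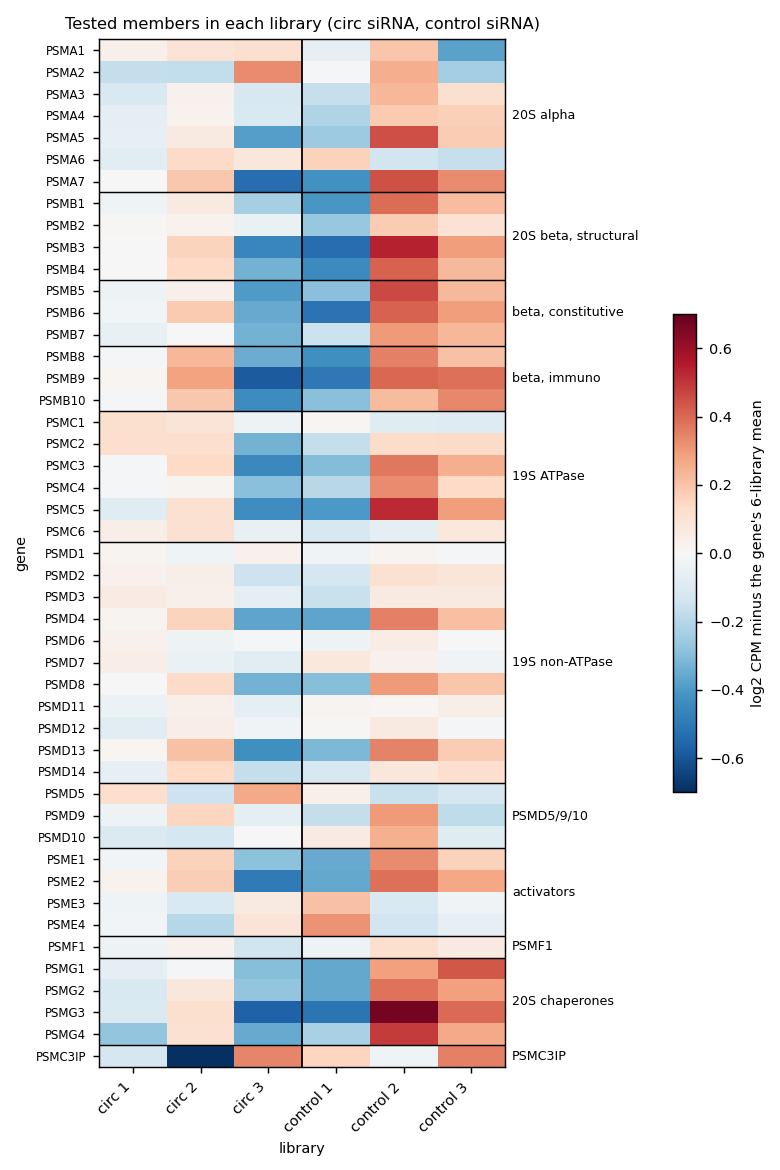
Log2 CPM of each tested member minus its own mean over the 6 libraries, by role, with circ siRNA libraries left of the vertical line and control siRNA libraries right of it. Circ library 3 and control library 1 are low (blue) for most subunits of the core and its chaperones, and control libraries 2 and 3 high (red), while several cap subunits and PSME3, PSME4 and PSMD5 do not follow this.

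The members' levels differed widely between libraries of the same group. Their summed level was 4592, 4928 and 3884 CPM in circ siRNA libraries and 3929, 5575 and 5189 CPM in control siRNA libraries. Circ library 3 and control library 1 were the 2 lowest and control libraries 2 and 3 the 2 highest. Of the 47 tested members, 16, 37 and 9 lay above their own 6-library mean in circ siRNA libraries and 10, 40 and 35 in control siRNA libraries. The same libraries lay at the ends of the first principal component of all tested genes (53.4% of the variance), at -1.51, 11.5 and -38.4 for circ siRNA and -23.2, 30.4 and 21.3 for control siRNA. The summed macrophage markers were 2693, 2870 and 1852 CPM in circ siRNA libraries and 2317, 3041 and 3004 CPM in control siRNA libraries, with the same 2 libraries lowest. The single markers differed in this. By counts CD14, SPI1 and TYROBP were lowest in these 2 libraries, while ITGAM and LYZ were highest in them. CSF1R, CD163 and FCGR1A followed neither pattern. The part of the macrophage markers in the members' values was not tested.

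Gene length moved with these deviations. Across all tested genes the Spearman correlation of a library's deviation with deposited gene length was 0.05, -0.29 and 0.39 in circ siRNA libraries and 0.47, -0.44 and -0.40 in control siRNA libraries. Across the 47 tested members, which share the libraries and so are not independent, it was -0.01, -0.26 and 0.51 in circ siRNA libraries and 0.57, -0.54 and -0.60 in control siRNA libraries. The 24 shorter members had median deviations of -0.01, 0.11 and -0.33 (log2) in circ siRNA libraries and -0.33, 0.34 and 0.23 in control siRNA libraries. The 23 longer members stayed between -0.06 and 0.04 in circ siRNA libraries and between -0.11 and 0.08 in control siRNA libraries. The share of counts from ribosomal protein genes, which are short as well, was 3.86%, 4.51% and 3.81% in circ siRNA libraries and 3.33%, 5.97% and 5.04% in control siRNA libraries. The part of gene length in the fold changes was measured only through the offsets. With them edgeR called 0 members, against 0.0481% of all tested genes in each direction, and 0 members had an unadjusted p under 0.05, against 9.4% of all tested genes. The log2 fold changes were then below 0 for 42 of the 47 members, against 52.9% of all tested genes, with a median of -0.08.

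**Figure D5:**
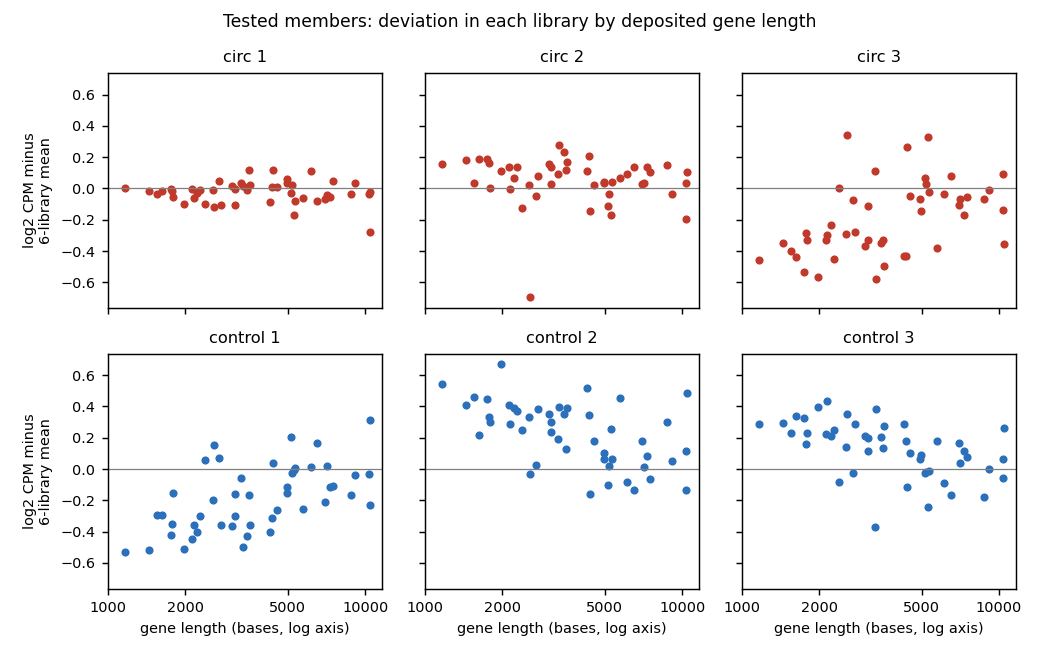
Log2 CPM of each tested member minus its 6-library mean (vertical axis) against its deposited gene length in bases (log axis), a panel per library, circ siRNA above control siRNA. Shorter members lie low in circ library 3 and control library 1 and high in control libraries 2 and 3, where the Spearman correlations are 0.51, 0.57, -0.54 and -0.60.

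Leaving out control library 1 and circ library 3 changed the calls. Circ libraries 1 and 2 against control libraries 2 and 3 gave 10 members called lower and 0 higher by edgeR, 21.3% of the members, where 7.43% of all tested genes were called lower and 7.38% higher. The 10 were PSMA5, PSMA7, PSMB1, PSMB3, PSMB5, PSMB7, PSMC5, PSMG1, PSMG2 and PSMG3, with 41 of 47 log2 fold changes below 0, against 50.4% of all tested genes, and a median of -0.19. In this fit PSMB5 was at -0.34 (adjusted p = 0.0325), PSMB7 at -0.29 (adjusted p = 0.0209) and PSMG3 at -0.53 (adjusted p = 0.016). PSMB6, the other constitutive catalytic subunit, was not called (-0.26, adjusted p = 0.0726), nor was any immunoproteasome subunit or activator. PSMB8, PSMB9 and PSMB10 were at -0.16, -0.23 and -0.19, and whether they differed from the constitutive subunits was not tested. Of the called members 8 belong to the 24 shorter ones, and the 4 libraries kept still differed in their trend over length, as given above. With offsets for length and GC content added, 4 of the 47 members were called lower (PSMA4, PSMA5, PSMC5 and PSMG3). That is close to the share of all tested genes called lower in this fit, 7.88%. PSMB5 and PSMB7 were then at -0.18 and -0.15 and did not pass (adjusted p = 0.168 and 0.135, edgeR). The 2 libraries were left out because each stands apart from the other 2 of its group over all genes. Because that choice was made on these same data, the spread within the groups kept is small by selection. Adjusted p-values and calls without these 2 libraries, with or without offsets, are therefore a description and not a valid test. Control libraries 2 and 3, which were kept, lie at the opposite end of the first principal component (30.4 and 21.3, against -23.2 and -38.4 for those left out). With 2 libraries per group the fit rests on few degrees of freedom.

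Genes that act with the proteasome were taken from 4 lists, and none passed the test in the fit of all 6 libraries. Of 18 proteasome-associated and assembly factors, 14 had log2 fold changes below 0, with a median of -0.09. POMP, the maturation factor of the core, had 124, 143 and 107 CPM in circ siRNA libraries and 101, 185 and 154 CPM in control siRNA libraries. Control library 1 and circ library 3 were its 2 lowest and control libraries 2 and 3 its 2 highest. ZFAND2A, which binds the cap under arsenite stress, was at -0.36 and TXNL1, a thioredoxin-like protein bound to the cap, at -0.17. Of 6 genes of the NFE2L1 route, 4 were above 0. NFE2L1, the transcription factor itself, had 144, 129 and 149 CPM in circ siRNA libraries and 162, 110 and 126 CPM in control siRNA libraries (log2 fold change 0.08, adjusted p = 0.925, edgeR). MIDN, listed with them although it is known for delivering proteins to the proteasome without ubiquitin, was at 0.27, and SYVN1, an ER ubiquitin ligase, at -0.06.

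Of 17 tested genes for MHC class I loading and its regulators, 7 were above 0 and the median was 0.00. TAP1, the peptide transporter that shares its promoter region with PSMB9, had 718, 673 and 712 CPM in circ siRNA libraries and 667, 543 and 610 CPM in control siRNA libraries. All 3 circ siRNA values were above all 3 control siRNA values, as they were for TAPBP, the only other gene of the list without overlap, where 6.64% of all tested genes lay apart in this direction. The log2 fold change of TAP1 was 0.21 ± 0.12 (SE; adjusted p = 0.864, edgeR), and that of ERAP2, a peptide-trimming enzyme, -0.33. PSMB9, across the shared region, was at -0.20 with overlapping groups, and the difference between the 2 genes was not tested. Of 6 genes for ubiquitin and its activation 3 were above 0. RPS27A, which encodes ubiquitin fused to a ribosomal protein, was at -0.33, and UBA6, a ubiquitin-activating enzyme, at 0.21. Without control library 1 and circ library 3, POMP and RPS27A, of the genes named from these lists, were called lower and MIDN, TAP1 and UBA6 higher. In that fit 7.43% of all tested genes were called lower and 7.38% higher. By list, 1 of 18 associated factors was lower, and 1 of 6 NFE2L1 route genes and 2 of 17 MHC class I genes were higher. Of the 6 ubiquitin genes 2 were lower and 1 higher. As said above, these calls are not a valid test.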

How the data were processed

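Poly-A selected RNA from 6 libraries of THP-1 cells was sequenced as paired ends, per the labels' protocols. The submitters' processing notes name CASAVA, cutadapt and HISAT2, and GRCh38 as the genome. For their versions, the counter, its strand setting and the gene annotation, the sources used here give nothing. The deposited table holds whole-number counts per gene and library, not normalised by the authors. Beside them stands an FPKM per gene and library, which the authors scaled to each library's total and to a gene length over all exons, as checked from the deposited counts and lengths. FPKM served for levels and ratios only.

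The 12469 genes kept by filterByExpr (minimum count 10) were tested with edgeR 4.0.16 in R 4.3.3, by the quasi-likelihood F test, two-sided, with TMM scaling, the group as only term and Benjamini-Hochberg adjustment at 0.05. Standard errors and 95% intervals come from the F statistic. CPM here means counts divided by the TMM-scaled library total. Named members are the catalytic subunits, activators and PSMF1, and up to 3 tested genes with the smallest p per other class and list. Others named beyond this rule (PSMA1, PSMA2, PSMA6, PSMC1, PSMC6, PSMD2 and TAPBP) were chosen after their values were seen. So were PSMG2 and PSMA4, named as called members without control library 1 and circ library 3, and PSMA8 and PSMB11, named for their lack of counts. Of the genes that the rule names, 2 are not reported here. Members and lists were chosen with earlier results of these data known. Alternatives were other scalings and filters, DESeq2 1.42.0, limma-voom (limma 3.58.1), leaving libraries out, a replicate block, and offsets from each library's length and GC trend (natural splines, 4 degrees of freedom, no group labels). Leaving out control library 1 and circ library 3 together with the offsets was added after the data were seen. Of the same-numbered libraries only those numbered 2 deviated together, which does not settle whether the numbers pair the libraries. No 2 libraries of a group agreed within sampling noise. Overlaps and repeated 50-base stretches come from GENCODE 29, whose 19914 matched identifiers include all members, and promoters from RefSeq. The edgeR code was tested on simulated data, with 50 changed genes at each size. It recovered 8% of 1.5-fold, 58% of 2-fold and 96% of 4-fold changes, so most 1.5-fold changes would be missed. Gene coordinates are as deposited.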

Additional observations from a re-analysis of the deposited data

How the results depend on the processing

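Of 714 alternative values for 42 named genes, 663 kept direction and side of the threshold, 27 passed the threshold and 24 turned their sign. Genes called higher numbered 0 with edgeR on all libraries, 60 with DESeq2, 6 with length and GC offsets, 3 at an adjusted p under 0.10, 919 without control library 1 and circ library 3, and 917 without both and with offsets. Genes called lower numbered 1, against 0 with library totals alone, with limma-voom, with the replicate block, with offsets and the block, and at 0.01. They numbered 2 without the filter, 23 with DESeq2, 6 with offsets, 4 at 0.10, 926 without both libraries and 981 without both and with offsets. Leaving out any 1 library gave 0 called lower and 0 called higher. Members called lower were 10 without both libraries and 4 without both and with offsets, and 0 in every other setting, the replicate block included.

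The median log2 fold change of the members stayed below 0. It was -0.13 with all libraries, -0.27 without control library 1, -0.03 without control library 2, -0.08 without control library 3, -0.04 without circ library 3, -0.13 without circ library 1 and -0.18 without circ library 2. In the settings other than leaving out 1 library it lay between -0.19 and -0.08. The PSMB8 to PSMB5 difference ran from 0.12 to 0.21 over the libraries left out in turn, and that of PSMB10 to PSMB7 from 0.00 to 0.15. PSMB9 to PSMB6 turned to 0.02 without both libraries and ran from -0.13 to 0.03 over the libraries left out in turn. The replicate block left the PSMB8 to PSMB5 difference at 0.18 and the median at -0.12. Same-numbered libraries correlated at -0.17, 0.46 and -0.37 in their deviations, and only those numbered 2 were each other's best match. These deviations also hold the libraries' differences over gene length, so they cannot decide whether the numbers pair the libraries.

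PSMD9 turned from 0.02 to -0.015 without both libraries, -0.051 with offsets, -0.040 with offsets and the replicate block and -0.10 without both and with offsets. SYVN1 turned to 0.033 without both libraries and 0.016 with offsets added, and PSMB10 to 0.0025 without both and with offsets. Leaving out 1 library at a time gave -0.30 to 0.054 for PSMB8, -0.44 to 0.0027 for PSMB9, -0.39 to 0.012 for PSMB6, -0.36 to 0.0028 for PSMB1, -0.37 to 0.021 for PSMB4, -0.33 to 0.00094 for PSMD4 and -0.31 to 0.017 for PSMD13. The same ranges were -0.28 to 0.037 for PSME1, -0.12 to 0.043 for PSME3, -0.18 to 0.057 for PSME4, -0.062 to 0.19 for PSMD9, -0.036 to 0.25 for NFE2L1 and -0.11 to 0.021 for SYVN1. Where leaving libraries out changed a value, the cause was not tested. Depth limits PSMA2, PSMD9 and PSMC3IP most, at 1.66 to 4.42 CPM.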
